A study of Mus musculus with 17 samples.

Results

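The 9 genes described here encode the membrane-rupture protein NINJ1, the pore-forming gasdermins D and E, the inflammatory and apical caspases 1, 4 and 8, and the inflammasome components NLRP3, PYCARD (also named ASC) and AIM2. They are 9 of the 22859 genes in the count table and were taken by symbol in all 17 libraries of the series. The set was chosen by the readout as well as by function: Ninj1 was picked because it was higher after immune complex (IC) challenge in MHCII+CD11c+ macrophages, so its values in every comparison that uses MHCII+CD11c+ libraries are given as a description, with no test, and it is left out of the counts there. The libraries are bulk RNA-seq of macrophages sorted from the synovium, the tissue that lines the joint, of adult Fcgr2b-KO mice. All groups, controls included, lack the inhibitory Fc receptor FcγRIIb by genotype, and no wild-type library is used here. IC animals received ICs intravenously and were killed 8 h later, and the control animals carry the label Healthy or Control. The sort gave 3 subsets in each treatment: LYVE1+CX3CR1+ macrophages (LYVE1+ below), MHCII+CD11c- macrophages (CD11c- below) and MHCII+CD11c+ macrophages (CD11c+ below). There are 3 libraries per group, but 2 for CD11c+ macrophages after IC. The labels do not say whether libraries of a group came from separate or pooled animals, so p-values measure the spread between these libraries, which may be technical.

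Macrophages carry sensors of infection and damage that assemble into inflammasomes. NLRP3 responds to disturbance of the cell and AIM2 to DNA in the cytosol, and both recruit caspase-1 through the adaptor PYCARD. Active caspase-1, or caspase-4 (in mice often called caspase-11), which binds cytosolic lipopolysaccharide, cleaves gasdermin D, whose fragments open pores in the plasma membrane, and caspase-1 also matures IL-1β and IL-18. Gasdermin E is a further pore former, opened during apoptosis, caspase-8 stands where apoptosis, necroptosis and pyroptosis meet, and NINJ1 clusters in the membrane of dying cells and ruptures it. These steps act on proteins, and the values below are of transcripts only.

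Total counts ran from 2301913 to 7248939 per library, and the 3 LYVE1+ IC libraries were among the 4 with the fewest genes detected, at 11547, 13715 and 14068, beside 13888 in CD11c+ control replicate 3. At an equal depth of 2301913 counts, these libraries held 11547 to 13857 genes and the other 14 held 13819 to 17652. Reads on Fcgr2b were present in every library (167 to 1168 counts), and the count per gene does not separate the deleted from the remaining exons, so it does not check the genotype. The sorted subsets carried their markers: Itgax, which encodes CD11c, was at 275 to 443 counts per 1000000 counts (CPM) in CD11c+ libraries and at 0 to 16.05 CPM in the other libraries, and the summed level of 5 MHCII subset genes was at most 673 CPM in LYVE1+ libraries and at least 12160 CPM in all MHCII+ libraries. CD11c+ control replicate 2 stood apart on the 5 LYVE1+ subset genes, with a summed 581 CPM against 83.6 and 57.5 CPM in the other controls. The summed levels of endothelial cell, B cell and mast cell genes were at most 34.6, 23.4 and 31.1 CPM in any library, and that of 6 fibroblast genes was 8.70 to 206 CPM. Of the listed T and NK cell genes only Cd3d was in the table, at no more than 4.33 CPM, so NK cells were not covered. In bulk libraries a smaller share of cells with a transcript and less of it per cell cannot be told apart.

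The promoters of Ninj1 and Nlrp3 are shown because the calls below turn on these genes. The sequences are RefSeq promoters in GRCm38.p6, 250 bases before to 50 bases after a transcription start, and 8 of the 9 genes were matched, with 10 promoters in all; Gsdmd was not matched. Of 5 short motifs searched on both strands, capitals mark 2, a GC box (GGGCGG) and a κB-type core (GGANNTTCC).
Ninj1 promoter, chr13:49187279-49187578, plus strand: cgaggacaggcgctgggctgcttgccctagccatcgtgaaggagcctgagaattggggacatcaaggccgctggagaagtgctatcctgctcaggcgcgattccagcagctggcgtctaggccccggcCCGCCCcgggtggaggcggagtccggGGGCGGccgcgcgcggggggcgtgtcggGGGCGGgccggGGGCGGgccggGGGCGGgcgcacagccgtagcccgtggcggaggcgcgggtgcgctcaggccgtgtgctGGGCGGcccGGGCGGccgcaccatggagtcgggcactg
Nlrp3 promoter at the upstream of its 2 starts, chr11:59541319-59541618, plus strand: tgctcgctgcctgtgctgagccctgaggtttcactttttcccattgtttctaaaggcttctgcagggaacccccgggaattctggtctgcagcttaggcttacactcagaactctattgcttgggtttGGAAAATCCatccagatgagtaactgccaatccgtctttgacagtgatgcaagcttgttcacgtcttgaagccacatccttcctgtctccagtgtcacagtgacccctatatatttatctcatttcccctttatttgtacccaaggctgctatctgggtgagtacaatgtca
The Ninj1 promoter was GC-rich, with 76.3% G or C and 37 CG pairs, against a median of 52.7% G or C over all 32851 promoters. It held 7 GC boxes, a motif found in 35.7% of all promoters, and no κB-type core. The Nlrp3 promoter had 47.3% G or C, 4 CG pairs, no GC box and 1 κB-type core, which 4.26% of all promoters held and no other of the 10 promoters did. This holds for the searched spelling alone: both Casp4 promoters held the similar letters GGGGATTTCC, which GGANNTTCC does not match. An interferon-stimulated response element core (GAAANNGAA), present in 8.56% of all promoters, was found in none of the 10. A GC box also stood in the promoters of Gsdme, Pycard and Aim2, a glucocorticoid receptor half-site (AGAACA; 19.0% of all promoters) in that of Casp1, and a TATA box (TATAAA; 13.6% of all promoters) in none of the 10. The letters searched for the κB and interferon elements were settled after matches to other spellings of both had been seen, and the upstream Nlrp3 start was picked for display after its match was seen; the promoter at the other start, chr11:59542436-59542735, held none of the 5 motifs. These matches describe the letters in a window and nothing about the factors that bind them.

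Ninj1 (ENSMUSG00000037966.15; GRCm38 chromosome 13, 49187485 to 49196244, plus strand) was higher after IC challenge in the LYVE1+ and CD11c- macrophages on average. In LYVE1+ macrophages, Ninj1 was at 403, 378 and 376 CPM in the controls and at 543, 524 and 503 CPM after IC. In CD11c- macrophages, it was at 446, 275 and 341 CPM in the controls and at 549, 598 and 739 CPM after IC. All IC libraries lay above all control libraries in each of these subsets. With groups this small, the share of all genes whose ranges do not overlap was not counted, here or for the genes below. Averaged over both subsets, the IC response of Ninj1 was a log2 fold change of 0.63 ± 0.14 (SE; 1.55-fold; edgeR adjusted p = 0.0128), higher in 6 of 6 IC libraries. The test takes these libraries as separate, and the labels do not say whether same-numbered LYVE1+ and CD11c- libraries shared animals. If they did, there are fewer independent units than libraries, which the p-value leaves out. Deviations of such pairs from their group means correlated at 0.007 to 0.127 in the controls and 0.015 to 0.059 after IC. Ninj1 was the 1 gene of the 9 that passed in this mean IC response, in which 3.33% of the 15272 tested genes passed. The comparison was set up to test Ninj1 away from the CD11c+ libraries that led to its choice, so 1 of 9 is not an unselected count. The median log2 fold change over all tested genes was -0.11 in this comparison, -0.14 in LYVE1+ macrophages alone and -0.03 in CD11c- macrophages alone. Whether this shift, or the fewer genes detected in the LYVE1+ IC libraries, bears on the Ninj1 value was not tested.

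Within a single subset, the Ninj1 difference did not pass. The log2 fold change was 0.44 ± 0.20 in LYVE1+ macrophages (edgeR adjusted p = 0.309) and 0.83 ± 0.20 in CD11c- macrophages (edgeR adjusted p = 0.0524), and the difference between these responses was -0.39 (95% interval -0.97 to 0.19; edgeR adjusted p = 0.811). The CD11c- value passed in DESeq2, at 0.79 with an adjusted p of 0.0176, and passed in edgeR without CD11c- control replicate 1 (1.04; adjusted p = 0.0369) or without IC replicate 1 (0.91; adjusted p = 0.0456). Over all 13 alternatives its adjusted p ran from 0.0131 to 0.342. Markers of the LYVE1+ subset moved with Ninj1 here: their summed level was 988 to 1721 CPM in CD11c- controls and 1817 to 3293 CPM after IC, and 3552 to 4385 and 5560 to 6516 CPM in LYVE1+ macrophages, though 0 of the 5 genes passed in the mean IC response. The 5 MHCII subset genes moved the other way, from a summed 18210 to 19930 CPM in CD11c- controls to 12160 to 13810 CPM after IC, and from 299 to 673 CPM to 66.4 to 119 CPM in LYVE1+ macrophages, and 4 of the 5 were lower in the mean IC response. The part of either list in the Ninj1 response was not tested. The Ninj1 level itself did not separate the 2 control subsets, with means of 386 ± 14.9 CPM in LYVE1+ and 354 ± 86.2 CPM in CD11c- macrophages (SD, n = 3).

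In CD11c+ macrophages, Ninj1 was at 55.3, 85.8 and 49.9 CPM in the controls and at 205 and 161 CPM after IC. This was the increase for which the gene was picked, a log2 fold change of 1.52 ± 0.22 (2.86-fold), given with no test. Without control replicate 2, the library with the most LYVE1+ subset transcripts, it was 1.80. Other markers moved as well: the summed level of 7 macrophage genes was 3062 to 3342 CPM in the controls and 4205 and 4548 CPM after IC, that of 9 neutrophil genes was 92.1 to 484 CPM in the controls and 25.7 and 29.7 CPM after IC, and the LYVE1+ subset genes were at 266 and 559 CPM after IC. Their part in the Ninj1 values was not tested.

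The order of the Ninj1 group means was CD11c- after IC (629 ± 98.7 CPM), LYVE1+ after IC (524 ± 20.05 CPM), LYVE1+ controls, CD11c- controls, CD11c+ after IC (183 ± 31.4 CPM) and CD11c+ controls (63.7 ± 19.4 CPM; SD). Only the control LYVE1+ and CD11c- libraries, neighbours in that order, overlapped in range. The CD11c+ macrophages thus held the least Ninj1 in both treatments, at a log2 distance from LYVE1+ macrophages of 2.59 in the controls and 1.52 after IC, and from CD11c- macrophages of 2.47 and 1.78 (description, no test).

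**Figure D1:**
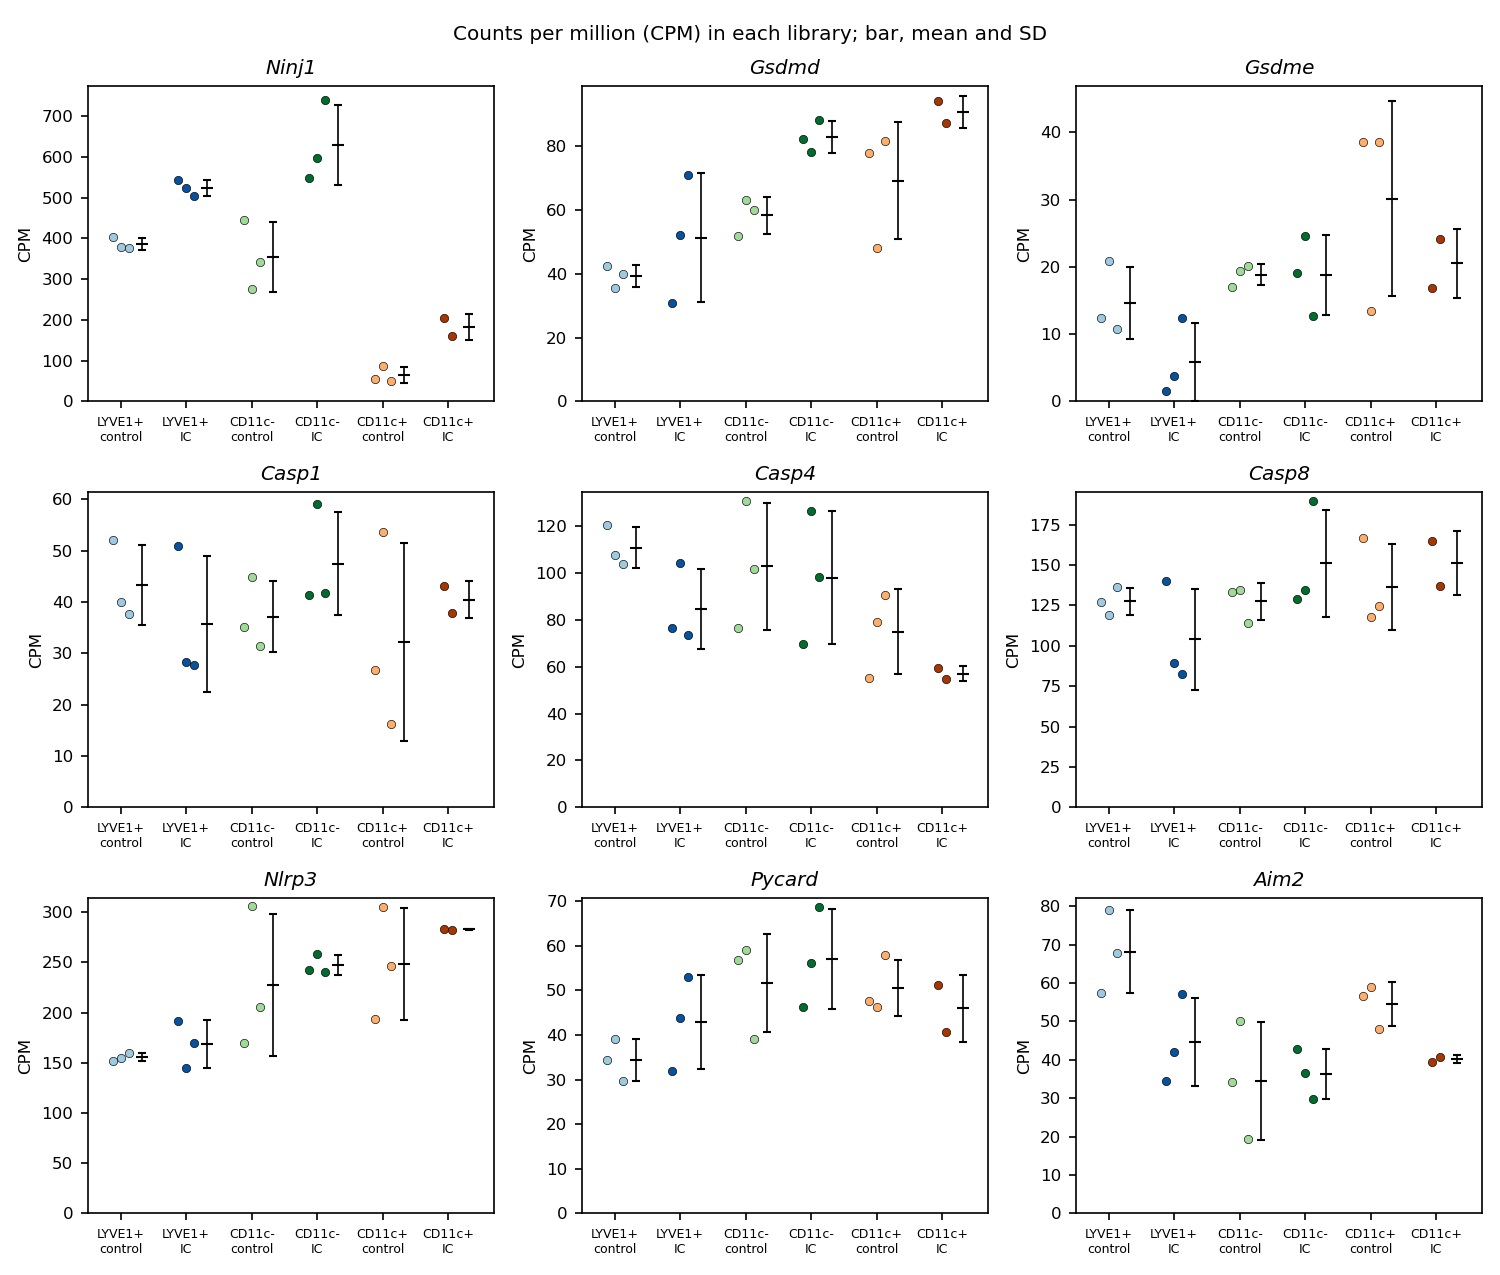
CPM (vertical axes, from 0) of the 9 genes in each of the 17 libraries (points) by subset and treatment (horizontal axes), with the mean and SD of each group. Ninj1 runs from 49.9 CPM in a CD11c+ control library to 739 CPM in a CD11c- library after IC, with all IC libraries of a subset above its controls. Those of Gsdmd also lie above the controls in CD11c- and CD11c+ macrophages, and those of Aim2 lie below in LYVE1+ and CD11c+ macrophages. The share of all genes without overlap was not counted.

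Of the gasdermins, Gsdmd (ENSMUSG00000022575.5; chromosome 15, 75862327 to 75867408, plus strand), the executor of pyroptosis downstream of caspases 1 and 4, did not pass in any IC comparison. Its CPM in LYVE1+ macrophages was 42.4, 35.4 and 39.9 in the controls and 30.7, 52.2 and 70.9 after IC. In CD11c- macrophages it was 51.8, 63.3 and 59.9 in the controls and 82.3, 78.3 and 88.1 after IC, without overlap. In CD11c+ macrophages it was 77.8, 48.1 and 81.7 in the controls and 94.2 and 87.2 after IC, again without overlap. The log2 fold changes were 0.38, 0.51 and 0.39 in the 3 subsets, and the mean over LYVE1+ and CD11c- macrophages was 0.44 (95% interval 0.06 to 0.82; edgeR adjusted p = 0.198). Between subsets, Gsdmd was lower in LYVE1+ than in CD11c+ controls, by a log2 fold change of -0.81 ± 0.26 (edgeR adjusted p = 0.0342). That call held without CD11c+ control replicate 2, which had the least Gsdmd of its group, and was lost on leaving out any other single library of either group (adjusted p from 0.061 to 0.137). After IC the same difference was -0.83 ± 0.28 (edgeR adjusted p = 0.0597), and it passed with a replicate block (-1.03; adjusted p = 0.0245), with surrogate variables (-1.001; adjusted p = 0.0166) and without LYVE1+ IC replicate 3 (-1.12; adjusted p = 0.0126). Gsdmd in LYVE1+ against CD11c- macrophages after IC also passed with surrogate variables (-0.87; adjusted p = 0.0361) and without that library (-0.98; adjusted p = 0.037).

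Gsdme (ENSMUSG00000029821.15; chromosome 6, 50188888 to 50263862, minus strand), which opens membrane pores in cells undergoing apoptosis, was the least abundant of the 9. LYVE1+ macrophages had 79, 77 and 77 counts in the controls (12.4, 20.8 and 10.7 CPM) and 5, 12 and 30 counts after IC (1.46, 3.78 and 12.4 CPM). CD11c- macrophages had 17.1, 19.4 and 20.1 CPM in the controls and 19.1, 24.5 and 12.7 CPM after IC. CD11c+ macrophages had 38.5, 13.4 and 38.6 CPM in the controls and 16.9 and 24.2 CPM after IC. The low values thus sat in LYVE1+ IC replicates 1 and 2, and replicate 3, the library with the fewest genes detected, lay within the range of the LYVE1+ controls. After IC, Gsdme was lower in LYVE1+ than in CD11c+ macrophages, by -1.85 ± 0.60 (edgeR adjusted p = 0.0476). At an equal depth the difference was -1.61 (adjusted p = 0.079), and the call was also lost without CD11c+ replicate 1 (-2.08) or 2 (-1.56) or LYVE1+ replicate 1 (-1.34) or 2 (-1.60), while without LYVE1+ replicate 3 it was -2.96 (adjusted p = 0.00252). The IC response in LYVE1+ macrophages was -1.35 ± 0.56 and did not pass (edgeR adjusted p = 0.262). It was -0.83 without LYVE1+ IC replicate 1 and -2.43 without replicate 3, and passed with surrogate variables as covariates (-2.33; adjusted p = 0.0419). The Gsdme difference of LYVE1+ from CD11c- macrophages after IC did not pass (edgeR adjusted p = 0.0768) but did with surrogate variables (-2.57; adjusted p = 0.00673) and without LYVE1+ replicate 3 (-2.82; adjusted p = 0.00682).

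No caspase of the set passed in any of the 13 comparisons, but without LYVE1+ IC replicate 1 Casp8 passed as lower in LYVE1+ than in CD11c- (-0.79; edgeR adjusted p = 0.039) and CD11c+ macrophages after IC (-0.80; adjusted p = 0.031). Casp1 (ENSMUSG00000025888.5; chromosome 9, 5298517 to 5307265, plus strand), the canonical inflammasome protease, ranged from 16.3 to 59.1 CPM, and its group means lay between 32.2 ± 19.3 CPM in CD11c+ controls and 47.5 ± 10.1 CPM in CD11c- macrophages after IC, each overlapping its neighbour in the order. Casp4 (ENSMUSG00000033538.13; chromosome 9, 5308828 to 5336783, plus strand), the lipopolysaccharide-binding caspase, had its highest group mean in LYVE1+ controls (121, 108 and 104 CPM) and its lowest in CD11c+ macrophages after IC (59.4 and 54.8 CPM). The CD11c+ IC libraries lay below all 3 CD11c- IC libraries (69.6, 126 and 98.2 CPM), a log2 difference of -0.78 ± 0.28 that did not pass (edgeR adjusted p = 0.135). Casp8 (ENSMUSG00000026029.14; chromosome 1, 58795374 to 58847503, plus strand), initiator of extrinsic apoptosis, had group means from 104 ± 31.5 CPM in LYVE1+ macrophages after IC to 151 ± 19.8 CPM in CD11c+ macrophages after IC. Its IC responses were -0.29, 0.24 and 0.15 on the log2 scale in LYVE1+, CD11c- and CD11c+ macrophages, with 95% intervals of -0.73 to 0.15, -0.20 to 0.68 and -0.34 to 0.64.

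Nlrp3 (ENSMUSG00000032691.14; chromosome 11, 59541568 to 59566956, plus strand), a sensor of cell damage and disturbed ion balance, differed between subsets and passed in no IC comparison. In LYVE1+ macrophages it was at 152, 154 and 160 CPM in the controls and at 192, 144 and 170 CPM after IC. In CD11c+ macrophages it was at 194, 306 and 246 CPM in the controls and at 283 CPM in both libraries after IC. No CD11c+ library overlapped a LYVE1+ library of the same treatment. The log2 fold change of LYVE1+ against CD11c+ macrophages was -0.68 ± 0.20 in the controls (edgeR adjusted p = 0.0219) and -0.75 ± 0.22 after IC (edgeR adjusted p = 0.0282). Neutrophil markers were higher in CD11c+ than in LYVE1+ controls, at 92.1 to 484 against 30.8 to 40.5 CPM, and after IC they were at 25.7 and 29.7 against 12.6 to 32.8 CPM. Of the neutrophil genes, Ly6g was at 0 in 13 of the 17 libraries, Mmp8 in 11, Cxcr2 in 9, and Retnlg and Camp in 8 each. S100a9 was at 0 in 7 libraries, Ngp in 5, S100a8 in 4 and Csf3r in 0 (7.24 to 92.5 CPM). The summed level of 4 dendritic cell genes was also higher in CD11c+ than in LYVE1+ libraries, at 56.5 to 103 against 11.3 to 14.9 CPM in the controls and 87.1 and 102 against 6.61 to 10.8 CPM after IC. That of 4 monocyte genes was at 571 to 1166 against 464 to 721 CPM in the controls and at 796 and 1040 against 483 to 589 CPM after IC. The part of these cell types in the Nlrp3 difference was not tested. CD11c- macrophages lay between, at 170, 306 and 206 CPM in the controls and 242, 259 and 240 CPM after IC, and their differences from LYVE1+ macrophages (-0.55 in each treatment) did not pass (edgeR adjusted p = 0.24 and 0.11). The 3 IC responses of Nlrp3 were 0.12, 0.12 and 0.19, with 95% intervals between -0.29 and 0.65.

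The Nlrp3 calls were narrow. In the controls the adjusted p rose to between 0.0522 and 0.115 without LYVE1+ replicate 1 or 2 or CD11c+ replicate 2 or 3; without CD11c+ replicate 2 the difference was -0.50. After IC it rose to between 0.0583 and 0.173 without either CD11c+ library or LYVE1+ replicate 2 or 3, with differences of -0.63 to -0.75, and it was 0.0567 with RLE size factors.

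Pycard (ENSMUSG00000030793.4; chromosome 7, 127989708 to 127993867, minus strand), the adaptor shared by NLRP3 and AIM2, had group means from 34.5 ± 4.74 CPM in LYVE1+ controls to 57.1 ± 11.3 CPM in CD11c- macrophages after IC and passed in no comparison. 485 of its 3800 exon bases overlap the opposite-strand gene Gm45205, and since the strand setting of the counting was not given in the sources used here, reads of the pair may not be separated. Aim2 (ENSMUSG00000037860.15; chromosome 1, 173350879 to 173466040, plus strand), the DNA sensor, was at 57.5, 79.2 and 67.8 CPM in LYVE1+ controls and at 34.1, 50.01 and 19.4 CPM in CD11c- controls, without overlap. That difference, 0.97 ± 0.29 on the log2 scale, did not pass (edgeR adjusted p = 0.113), but did without CD11c- control replicate 2 (1.33; adjusted p = 0.0187). After IC, Aim2 was at 34.5, 42.2 and 57.2 CPM in LYVE1+ macrophages, below all their controls, and at 39.5 and 40.9 CPM in CD11c+ macrophages, below their controls of 56.6, 59.1 and 48.03 CPM. Neither decrease passed: the log2 fold changes were -0.61 and -0.44 (edgeR adjusted p = 0.344 and 1).

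**Figure D2:**
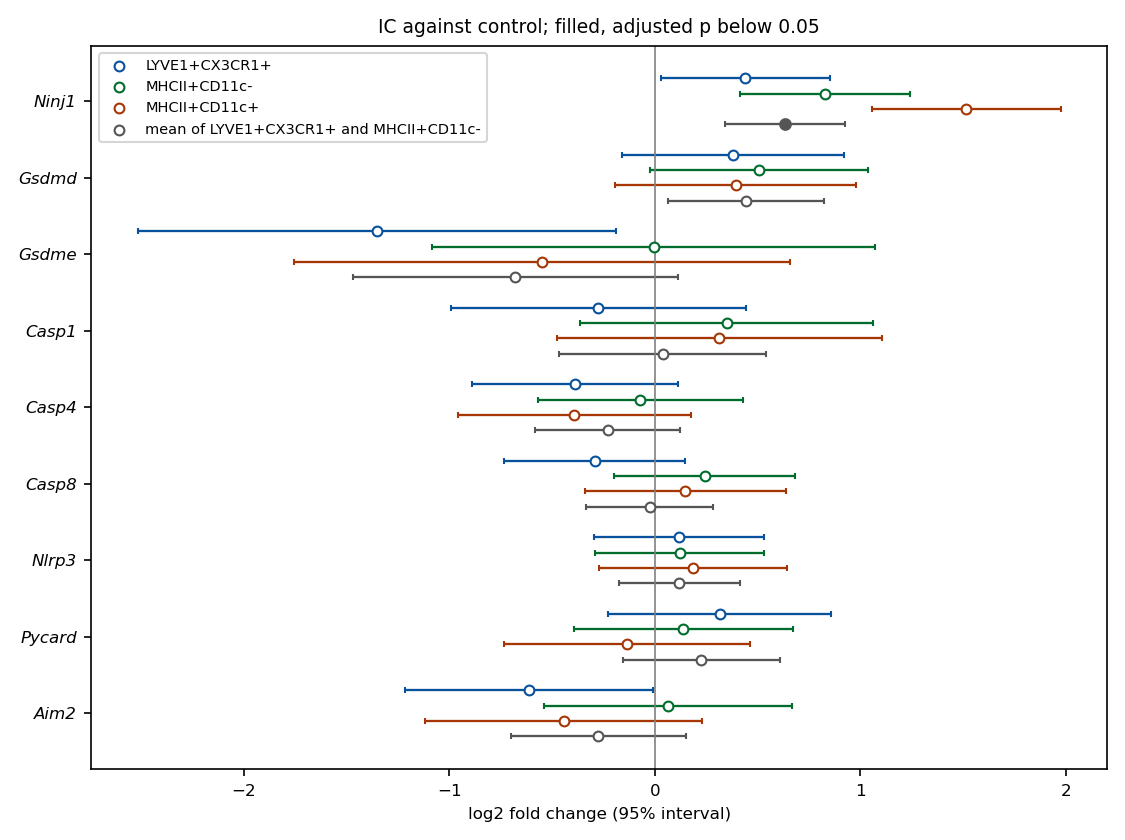
Log2 fold change of IC against control (horizontal axis, with 95% intervals) for each gene (vertical axis) in the 3 subsets and averaged over LYVE1+ and CD11c- macrophages; filled points passed at an adjusted p below 0.05. Ninj1 is the 1 gene with a filled point, its mean response of 0.63, and its CD11c+ value of 1.52 was not tested because the gene was picked for it.

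Counted over the set, 0 of 9 genes passed for IC in LYVE1+ macrophages, where 0.963% of all genes did, 0 of 9 in CD11c- macrophages (0.701% of all genes) and 0 of 8 in CD11c+ macrophages (0.216% of all genes). At an unadjusted p under 0.05 edgeR gave 3 genes (Ninj1, Gsdme and Aim2), 1 gene (Ninj1) and 0 genes, beside 14.1%, 9.99% and 5.21% of all genes. DESeq2 at an adjusted p under 0.05 gave 0, 1 (Ninj1) and 0 genes of the set, beside 433, 286 and 74 genes in all. The median log2 fold change of the 9 genes was -0.27 in LYVE1+ and 0.14 in CD11c- macrophages, beside -0.14 and -0.03 over all genes, and that of the 8 genes in CD11c+ macrophages was 0.01 beside 0.01.

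Between subsets, the 2 genes of 8 that passed in LYVE1+ against CD11c+ controls (Gsdmd and Nlrp3) stood beside 15.2% of all genes, and the 2 of 8 that passed after IC (Gsdme and Nlrp3) beside 11.9%; all were lower in LYVE1+ macrophages. The median over the 8 genes was -0.32 in the controls and -0.36 after IC, beside 0.05 and -0.12 over all genes. None passed in LYVE1+ against CD11c- macrophages, with 0 of 9 in the controls (1.56% of all genes) and 0 of 9 after IC (5.54%), where edgeR gave 4 genes each at an unadjusted p under 0.05, beside 10.2% and 21.7% of all genes, and DESeq2 none. CD11c+ against CD11c- macrophages also gave 0 of 8 in the controls (8.66% of all genes) and 0 of 8 after IC (4.03%), with 1 gene each at an unadjusted p under 0.05, Aim2 and Casp4, beside 21.4% and 14.0% of all genes, and none in DESeq2.

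The responses of 2 subsets to IC were compared directly in 3 interaction contrasts, and none of the genes passed. The counts were 0 of 9 for LYVE1+ minus CD11c- (0.0262% of all genes passed), 0 of 8 for LYVE1+ minus CD11c+ (0.0327%) and 0 of 8 for CD11c+ minus CD11c- (0% of all genes, with 496 at an unadjusted p under 0.05). Neither edgeR at an unadjusted p under 0.05 nor DESeq2 gave any of the genes in these contrasts. Ninj1, untested where CD11c+ libraries enter, had differences of -1.08 for LYVE1+ minus CD11c+ and 0.69 for CD11c+ minus CD11c-.

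**Figure D3:**
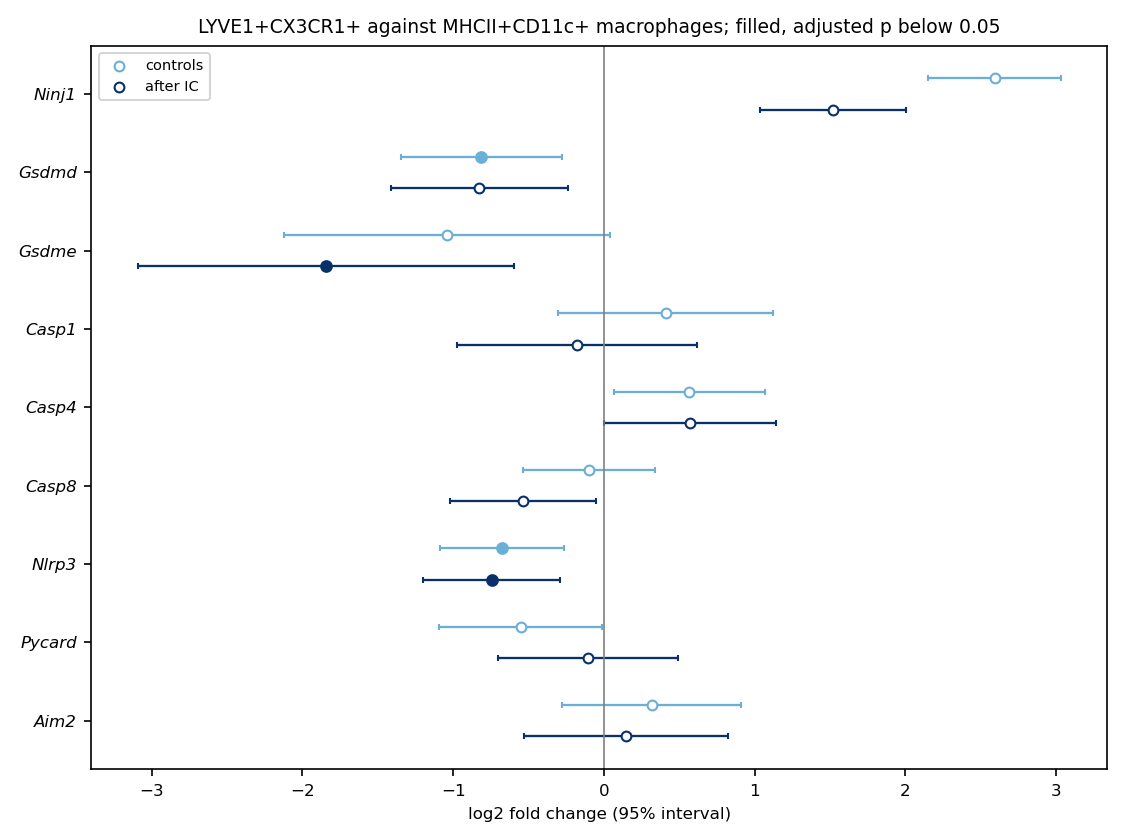
Log2 fold change of LYVE1+ against CD11c+ macrophages (horizontal axis, with 95% intervals) for each gene (vertical axis) in controls and after IC; filled points passed at an adjusted p below 0.05. Nlrp3 is filled in both treatments at -0.68 and -0.75, Gsdmd in controls at -0.81 and Gsdme after IC at -1.85, and Ninj1, at 2.59 and 1.52, was not tested.

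Levels of different genes were compared per kb of exon. Over the 17 libraries the median of Ninj1 was 241 CPM per kb, above the other 8 medians: Nlrp3 had 50.7, Casp8 46.2, Casp1 26.7, Gsdmd 26.6, Casp4 24.5, Aim2 12.2, Pycard 12.2 and Gsdme 1.34 CPM per kb. Gsdme has 12742 bases of exon over its transcripts, and with the longest transcript alone (4628 bases) its median was 3.69 CPM per kb, still the lowest, while that of Casp4 was 47.8. Ninj1 was thus the most abundant transcript of the set per kb in 5 of the 6 groups, and in CD11c+ controls, at 40.6 ± 12.3 CPM per kb, it lay below Nlrp3 (61.2 ± 13.8) and Casp8 (47.1 ± 9.17).

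**Figure D4:**
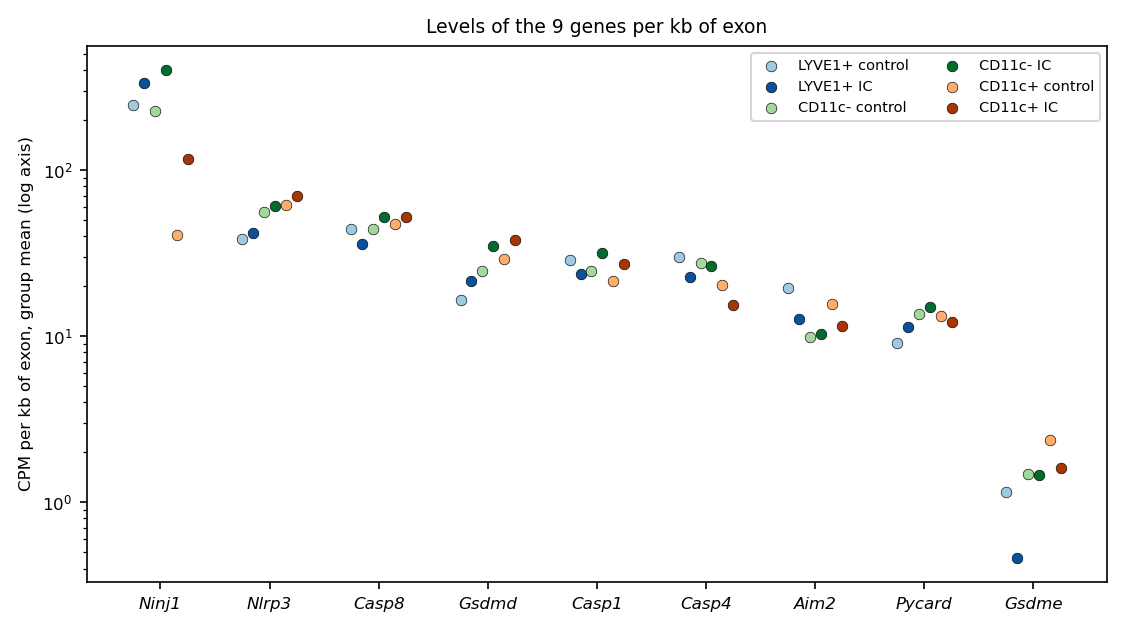
Group means of the 9 genes in CPM per kb of exon (vertical log axis), with genes (horizontal axis) in order of their mean over the 6 groups and 1 point per group. Ninj1 stands highest except in CD11c+ controls, and Gsdme lowest in all 6 groups, down to 0.463 CPM per kb in LYVE1+ macrophages after IC.

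Across the 17 libraries, which share 3 subsets and 2 treatments, the genes most like Ninj1 by the Pearson correlation of log2 CPM were C5ar1, the receptor for complement C5a (r = 0.981), Gcnt1, a glycosyltransferase (0.978), and Mindy1, a deubiquitinase (0.971). For Nlrp3 they were the chemokine Ccl5 (0.902) and the class I histocompatibility genes H2-Q6 (0.901) and H2-Q7 (0.90), which resemble each other in sequence, and for Gsdmd the phosphatase Dusp2 (0.89), the nocturnin gene Noct (0.865) and Helz2 (0.863). Gsdme was most like Nlrp1c-ps (0.90), Gm17089 (0.878) and Pparg (0.878), Casp1 like Eola1 (0.923), Slc41a2 (0.892) and Fkbp1a (0.875), and Casp4 like Atg16l2 (0.844), Atp6v0c (0.836) and Gm16133 (0.83). Casp8 was most like Magt1 (0.87), Ngdn (0.852) and Pkd1l2 (0.828), Aim2 like E2f3 (0.854), Dhdds (0.831) and Nes (0.826), and Pycard like Art3 (0.787), Nucb2 (0.778) and 4833445I07Rik (0.773). Within the set the correlations were weaker: the highest, of Gsdmd with Pycard, was 0.698, and those of Ninj1 ran from -0.522 with Gsdme to 0.458 with Casp1. These r values describe libraries that differ by sort and treatment and carry no test.

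The other genes of the pathway were read from lists, which were drawn up with earlier results known. Among 17 further inflammasome sensors and helpers, 16 were tested, and the strongest differences were between subsets. Mefv, which encodes the sensor pyrin, had 2, 1 and 8 counts in LYVE1+ controls and 1, 0 and 0 counts after IC, against 75.4 to 125 CPM in CD11c+ controls and 102 and 106 CPM after IC. CD11c- macrophages had 20.7 to 38.8 CPM of Mefv in the controls and 12.9 to 36.9 CPM after IC. It was lower in LYVE1+ than in CD11c+ controls by a log2 fold change of -7.35 ± 0.54 (edgeR adjusted p = 1.45e-09) and higher in CD11c+ than in CD11c- controls by 1.94 ± 0.38 (edgeR adjusted p = 0.00155). P2rx7, the ATP-gated channel upstream of NLRP3, ran the opposite way, at 199, 201 and 220 CPM in LYVE1+ controls, 154, 165 and 227 CPM in CD11c- controls and 34.5, 84.9 and 31.0 CPM in CD11c+ controls. LYVE1+ macrophages exceeded CD11c+ macrophages in P2rx7 by 2.03 ± 0.31 in the controls (edgeR adjusted p = 8.16e-05) and by 1.52 ± 0.35 after IC (edgeR adjusted p = 0.00632).

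Of the same list, Txnip, a thioredoxin-binding protein that can engage NLRP3, was also higher in LYVE1+ than in CD11c+ macrophages (0.74 in the controls and 0.70 after IC). Nlrp1b, the sensor of the anthrax lethal factor protease, and Nlrp10 were lower there (Nlrp1b -1.59 and -2.71; Nlrp10 with 4 to 7 counts in LYVE1+ controls and 0 in all 3 LYVE1+ IC libraries against 24 to 79 counts in CD11c+ libraries). In all, 2 of the 16 were higher and 3 lower in LYVE1+ against CD11c+ macrophages of each treatment, beside 15.2% of all genes called in the controls and 11.9% after IC. Against CD11c- macrophages, LYVE1+ macrophages were lower in Mefv in both treatments and in Nlrp1b after IC (-1.99). CD11c+ macrophages were higher than CD11c- macrophages in Mefv after IC (2.22) and lower in Txnip (-1.02) and P2rx7 (-1.85) in the controls. The shares of all genes called against CD11c- macrophages were 1.56% in LYVE1+ and 8.66% in CD11c+ controls, and 5.54% and 4.03% after IC. For the mean IC response, 2 of the 16 passed beside 3.33% of all genes, both lower: Nlrp1b by -1.12 ± 0.28 (edgeR adjusted p = 0.0272) and Naip6, a flagellin sensor, by -0.87 ± 0.20 (edgeR adjusted p = 0.0186). Both belong to families of near-identical copies among which reads can be split, so their values are uncertain. The median of the 16 genes was -0.24 for the mean IC response and -0.21 for LYVE1+ against CD11c+ controls, beside -0.11 and 0.05 over all genes. None of the 16 passed for IC within a single subset.

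Among 13 partners of caspase-8 and necroptosis, 1 passed for IC in a single subset, CD11c- macrophages, beside 0.701% of all genes. This was Zbp1, a sensor of Z-form nucleic acids that can start necroptosis. It was at 92.8, 68.2 and 62.9 CPM in CD11c- controls and at 134, 160 and 229 CPM after IC (log2 fold change 1.22 ± 0.28; edgeR adjusted p = 0.0417). Zbp1 was at 36.3, 14.8 and 18.7 CPM in LYVE1+ macrophages after IC, lower than in CD11c- macrophages by -2.89 ± 0.31 (edgeR adjusted p = 2.37e-06). Ripk3, the necroptosis kinase, was lower in LYVE1+ than in CD11c+ macrophages in both treatments (-1.04 and -1.60), and Mlkl, the necroptosis pore, and Birc3 were lower in the controls (-1.69 and -0.83). For LYVE1+ against CD11c+ controls 4 of the 13 were lower, Zbp1 (-0.999) among them, and 0 higher, where 15.2% of all genes passed in either direction, and the list median was -0.25 beside 0.05 over all genes. Zbp1 was also lower in LYVE1+ than in CD11c- controls (-1.71) and than in CD11c+ macrophages after IC (-1.88). Ripk3 was also lower in LYVE1+ than in CD11c- macrophages after IC (-1.72). The calls against CD11c- macrophages were 1 of 13 in the controls and 2 of 13 after IC, beside 1.56% and 5.54% of all genes. Those against CD11c+ macrophages after IC were 2 of 13, beside 11.9%.

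Of 7 genes for cytokines released by the pathway and their antagonists, Il1b and the antagonist Il1rn passed between subsets, and none passed for IC in a subset or on average. Il1b was at 12.4, 66.8 and 14.7 CPM in LYVE1+ controls and 35.7, 45.6 and 11.6 CPM after IC, and at 564, 763 and 660 CPM in CD11c+ controls and 551 and 804 CPM after IC. CD11c- macrophages had 115, 365 and 114 CPM of Il1b in the controls and 65.2, 151 and 89.7 CPM after IC. LYVE1+ macrophages had less Il1b than CD11c+ macrophages by -4.44 ± 0.80 in the controls (edgeR adjusted p = 0.00238) and -4.43 ± 0.83 after IC (edgeR adjusted p = 0.00461). Il1rn was lower in the same comparisons, at -3.02 ± 0.46 (edgeR adjusted p = 0.000318) and -3.63 ± 0.50 (edgeR adjusted p = 0.000243). It was also higher in CD11c+ than in CD11c- controls (1.54) and lower in LYVE1+ than in CD11c- macrophages after IC (-2.71). The calls for LYVE1+ against CD11c+ macrophages were 2 of 7 in each treatment, beside 15.2% of all genes in the controls and 11.9% after IC. The other 2 comparisons held 1 of 7 genes each, beside 8.66% and 5.54% of all genes. Il18 passed in no comparison and ranged from 4.92 to 25.7 CPM over all libraries. Neutrophils, monocytes and dendritic cells also carry Il1b; their marker sums are those given beside Nlrp3, and their part in the Il1b difference was not tested.

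**Figure D5:**
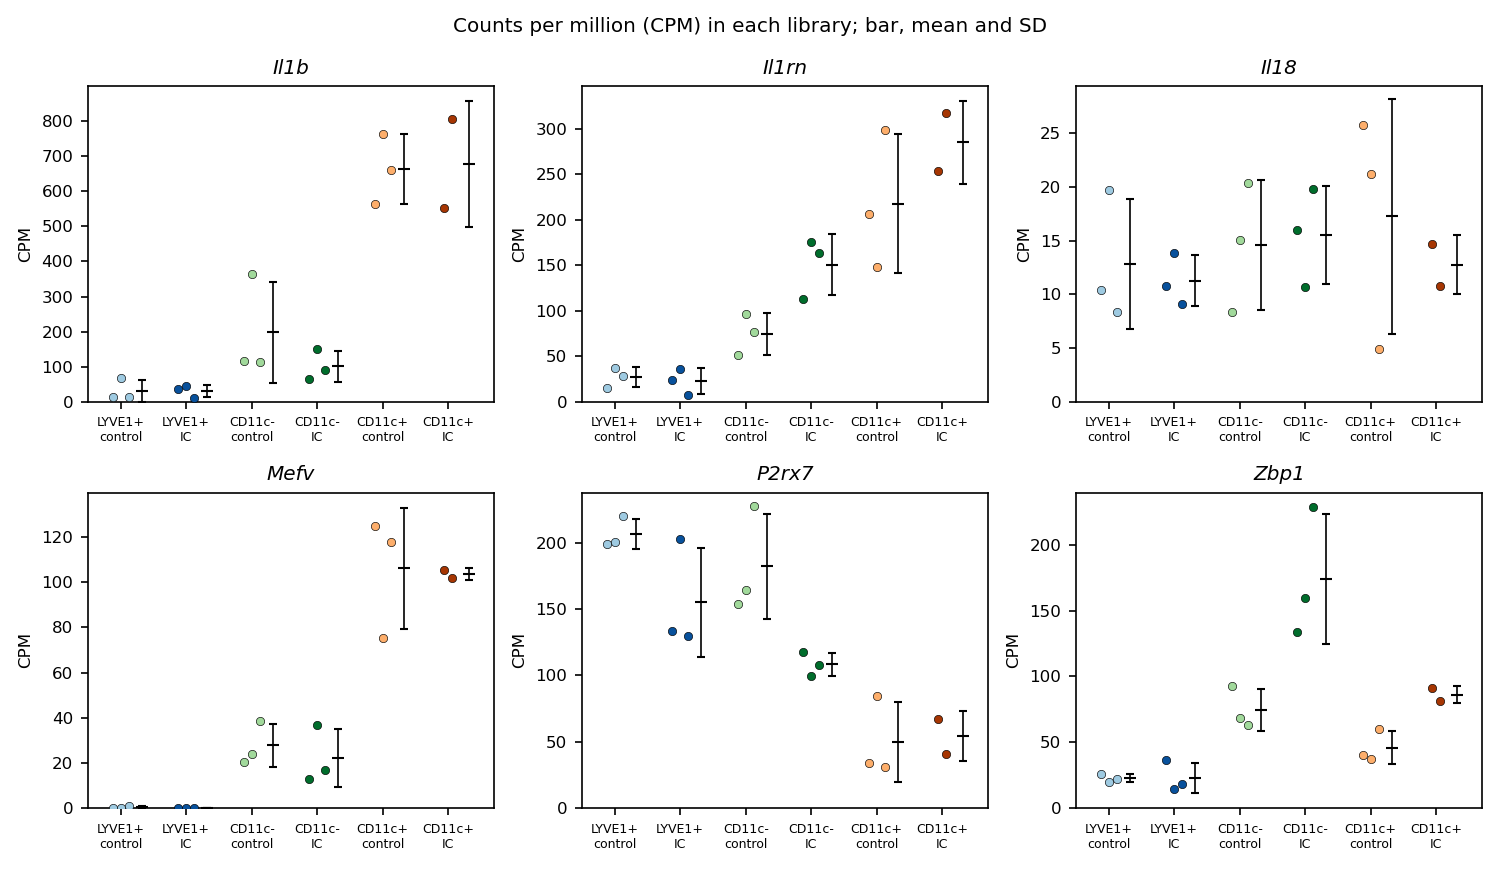
CPM (vertical axes, from 0) of 6 further pathway genes in each of the 17 libraries (points) by subset and treatment (horizontal axes), with the mean and SD of each group. Il1b, Il1rn and Mefv are highest and P2rx7 lowest in CD11c+ macrophages, and Zbp1 is highest in CD11c- macrophages after IC, at 134 to 229 CPM.

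The remaining lists held few calls. Of 6 guanylate-binding proteins and related GTPases that expose bacterial lipopolysaccharide to caspase-4, none passed for IC. In the controls Gbp5 was lower in LYVE1+ macrophages than in both MHCII+ subsets (-1.51 against CD11c+ and -1.44 against CD11c-), Gbp3 was lower than in CD11c+ macrophages (-1.21) and Gbp7 lower than in CD11c- macrophages (-0.998). After IC, LYVE1+ macrophages were lower in Gbp3 (-1.23) and Gbp5 (-1.23) than CD11c+ macrophages and lower in Gbp7 (-1.28) and Gm12250 (-2.83) than CD11c- macrophages. CD11c+ macrophages were lower than CD11c- macrophages in Gbp7 (-0.87) and Irgm2 (-1.61) in the controls and in Gbp7 (-1.13) after IC. These are members of a multigene family, and reads may be split among them. The list medians were -0.73 for LYVE1+ against CD11c+ controls and -1.08 against CD11c- controls, beside 0.05 and -0.004 over all genes. In LYVE1+ macrophages 2 of the 6 genes were lower in each of these comparisons and in each one after IC. The shares of all genes called were 15.2% (against CD11c+) and 1.56% (against CD11c-) in the controls, and 11.9% and 5.54% after IC. For CD11c+ against CD11c- macrophages the calls were 2 of 6 in the controls and 1 of 6 after IC, beside 8.66% and 4.03%. Of 6 transcription factors known to act on pathway genes, Irf1 was lower in LYVE1+ than in CD11c+ (-0.73) and CD11c- (-0.92) controls. Irf8 was lower in CD11c+ than in CD11c- controls (-1.15), and Nfkb1 was lower in LYVE1+ than in CD11c+ macrophages after IC (-0.81). Each was 1 of 6 genes in its comparison, in this order beside 15.2%, 1.56%, 8.66% and 11.9% of all genes. None of the 10 ESCRT-III genes, whose products shed damaged membrane, passed in any comparison by edgeR, and their median for the mean IC response was 0.01. Of the NINJ1 and gasdermin relatives, 4 of 9 were in the table and 1, Gsdmc4, was tested and passed in no comparison. Ninj2 was not among those found in the table, so it has no values here.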

How the data were processed

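The deposited values were counts per gene for 17 bulk libraries (Takara SMARTer stranded total RNA pico kit, 5 ng of RNA, paired ends). The authors' processing notes name Trim Galore, FastQC, HISAT2 and featureCounts with the mm10 build; versions and the strand setting are not given in the sources used here. The 17 per-sample files held the same counts as the joint table, and 1 column matched no sample and was not used. Samples were grouped by their labels, and 2 libraries of a group never agreed within sampling noise (chi-square per degree of freedom at least 6.77). Counts were tested with edgeR 4.0.16 in R 4.3.3 (filterByExpr with a minimum count of 10, TMM, robust quasi-likelihood F test, all 17 libraries in 6 groups, 11 residual degrees of freedom). Benjamini-Hochberg adjustment ran over all 15272 tested genes of a comparison, with calls at an adjusted p below 0.05; all 9 genes passed the filter. SE is the log2 fold change divided by the root of F, intervals are 95%, and CPM uses TMM-scaled library sizes. Log2 CPM for correlations used a prior count of 2. The fit was tested on simulated counts with known changes for 1 comparison, IC in CD11c- macrophages. The share of those changes that it recovered is not given here, so a gene that did not pass is not shown to be unchanged. Alternatives were RLE factors, no filter, only the groups compared, a replicate block, 2 surrogate variables (sva 3.50.0; the authors removed a batch that the sources do not name), equal depth, DESeq2 1.42.0 and leaving out each library. Positions and exon lengths are from GENCODE annotation of GRCm38, the same assembly as mm10. The members and lists were chosen with earlier results of these data known. Named were the 9 genes in every group, up to 4 called genes with the smallest p per list and comparison, Il1b, Il18, Il1rn and Ninj2, and the 3 genes most correlated with each member. One list of further pathway genes is not reported here.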

Additional observations from a re-analysis of the deposited data

How the results depend on the processing

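Of 188 counts of called genes under an alternative, 163 stayed within 1.5 times, 12 rose and 13 fell. Most of the 163 were counts of 0 that stayed at 0. All 13 falls were in LYVE1+ against CD11c+ macrophages, in the controls or after IC. A count that stayed could hold other genes: without LYVE1+ IC replicate 1, Casp8 replaced Gsdme in LYVE1+ against CD11c+ macrophages after IC. None of the single-gene fold changes called in either setting reversed, and 122 of 1692 single-gene values changed sign with no call in either setting. Ninj1 passed for the mean IC response under all 19 alternatives (adjusted p from 0.0012 to 0.0448, by edgeR or DESeq2). None of these took same-numbered libraries within a treatment as pairs. With surrogate variables the count was 1 for IC in LYVE1+ macrophages (Gsdme), 1 for IC in CD11c- macrophages (Ninj1), 1 instead of 2 for LYVE1+ against CD11c+ controls, 1 for CD11c+ against CD11c- controls (Aim2) and 2 for LYVE1+ against CD11c- macrophages after IC (Gsdmd and Gsdme), and it was 3 instead of 2 for LYVE1+ against CD11c+ macrophages after IC (Gsdmd added). Without a filter and in DESeq2 the count for IC in CD11c- macrophages was 1 (Ninj1). For LYVE1+ against CD11c+ macrophages after IC it was 0 with RLE factors and 1 at equal depth or with only the groups compared; the cause was not tested.

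Leaving out single libraries gave counts of 0 to 1 for IC in CD11c- macrophages, for LYVE1+ against CD11c- controls and for CD11c+ against CD11c- controls, 0 to 1 for LYVE1+ against CD11c+ controls, and 0 to 2 for LYVE1+ after IC against either MHCII+ subset. Where CD11c+ IC macrophages were left with 1 library, that library was assumed to vary like the other groups. Same-numbered libraries of a treatment had correlated deviations of 0.00129 to 0.286, with a median of 0.041 over 16 pairs. Differently numbered libraries of a treatment had -0.15 to 0.067, with a median of -0.029 over 32 pairs. Same-numbered libraries were thus slightly more alike, and the labels do not say whether they shared animals or a sort. The main tests did not take the numbers as pairs, so their p-values leave this likeness out. For IC against control, the replicate block joined libraries of a number over both treatments, so it does not allow for animals shared within a treatment. For the other comparisons the blocks were set within each treatment. The replicate block changed 1 call: Gsdmd passed for LYVE1+ against CD11c+ macrophages after IC, at -1.03 (adjusted p = 0.0245), which made 3 calls instead of 2, and over all genes the calls for the difference of IC responses between these subsets went from 5 to 35. Gsdme had the fewest counts of the set, down to 5 in 1 library.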
